A study of Mus musculus with 2 samples.

Results

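Hepatocyte identity transcription factors are the DNA-binding proteins that keep liver parenchymal cells transcribing liver genes. The set described here held 8 of the 15419 genes measured, Hnf4a, Foxa1, Foxa2, Foxa3, Cebpa, Cebpb, Onecut1 and Prox1. It was chosen by name, as all non-control array probes whose gene name is 1 of these, and it comprised 9 probes. Mouse primary hepatocytes, which are liver parenchymal cells placed in short-term culture, were given 50 pmol of either control siRNA or G0s2 siRNA with a lipid reagent in medium with 10% serum, and RNA was taken 24 hours later. The 2 groups shared everything else the labels give, and the strain, sex and age of the mice and the number pooled are not given in the sources used here. Each group had 1 single-colour (Cy3) Agilent array made from 0.5 ug of RNA.

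These factors act as a network rather than as single switches. HNF4A is a nuclear receptor that binds the regulatory regions of a large share of hepatocyte genes, the FOXA proteins are pioneer factors that open liver enhancers, C/EBP proteins are leucine zipper factors of liver metabolism and the acute phase, and ONECUT1 (HNF6) and PROX1 are homeodomain factors of liver development that remain expressed in the adult organ. They bind each other's promoters, and the levels of several of them commonly fall when hepatocytes are kept in plain culture.

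Hnf4a was the 1 member past the 2-fold rule used here, at 2.06-fold higher with G0s2 siRNA, and no member was at least 2-fold lower. Prox1 was next at 1.67-fold higher. The 3 Foxa genes lay between 1.16-fold and 1.31-fold higher, Cebpb was 1.13-fold higher, Cebpa 1.14-fold lower and Onecut1 1.17-fold lower. Across all genes measured, 4.81% passed the 2-fold rule upward and 5.45% downward, and 1 of 8 is the smallest count above 0 that a set of this size can give. The median difference over the 8 members was 0.23 on the log2 scale, and -0.03 over all genes. Since each group had 1 array, differences have no replicate check and no p-value, and every difference compares 2 arrays rather than 2 conditions.

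Levels are log2 processed signals centred on the 75th percentile of the array, and a difference is the level with G0s2 siRNA less that with control siRNA. The error printed after a difference is the scanner software's own signal error carried to the log2 scale. It has a median of 0.20 over all genes and does not cover variation from culture to culture or from labelling to labelling. For probes with repeated spots it is smaller, since those spots were counted as independent. Repeated spots of 1 probe on the same array had a median SD of 0.05 on each array. All 8 members were well above background on both arrays, and none of their spots was saturated or flagged as an outlier. Levels depend on the probe, so no gene's level was compared with another's.

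The knockdown itself was visible, since G0s2 was 6.50-fold lower after its siRNA. Its difference of -2.70 became -1.18 with spike-in centring. Signal was brighter overall on the G0s2 siRNA array, with a 75th percentile of 728 against 418. Hepatocyte identity was checked with 10 markers, of which 9 were measured and well above background on both arrays. Albumin (Alb) had levels of 8.48 and 8.78 and transthyretin (Ttr) 7.13 and 6.96 on the control and G0s2 siRNA arrays. No probe carried the symbol of the remaining marker, Tf. Markers of other liver cells were also detected. Summed linear levels relative to the 75th percentile were 1041 with control siRNA and 1188 with G0s2 siRNA for the hepatocyte markers. They were 7.66 and 4.28 for 5 cholangiocyte markers, 9.51 and 7.13 for 6 endothelial markers, and 12.7 and 11.1 for 6 macrophage markers. These sums weight genes by the brightness of their probes and are compared only within a list. The endothelial sum mostly follows Kdr, with levels of 3.13 and 2.62, while the median difference of that list was 0.39. In the macrophage list Mpeg1 was 2.27-fold lower and Cd14 2.14-fold higher. They were 0.163 and 0.177 for 2 stellate cell markers, with Des, Lrat, Pdgfrb and Reln not well above background. For 2 leukocyte markers they were 1.91 and 0.958, with Ptprc and S100a8 not well above background. In RNA from a culture, a change in the number of cells of a type and a change in RNA per cell cannot be told apart.

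Promoter sequences of the members were taken from RefSeq on GRCm38.p6, which held 12 annotated starts for the 8 genes. Hnf4a has 2 promoters, known as P1 and P2, which give transcripts with different first exons. P1 is the main promoter of adult liver, and P2 transcripts are found in fetal liver and in other organs. The annotated starts lay 40.3 kb apart on the plus strand of chromosome 2, and since the array had 1 Hnf4a probe, its value does not separate their transcripts. The 250 bases before each start are shown because Hnf4a is the member with the largest difference, and the promoter of Foxa1 is added as the member promoter with a forkhead core. Capitals mark matches to the motifs searched. The Hnf4a P2 stretch is chr2:163506607-163506856, the P1 stretch is chr2:163546905-163547154, both on the plus strand, and the Foxa1 stretch is chr12:57546112-57546361 on the minus strand.
Hnf4a P2: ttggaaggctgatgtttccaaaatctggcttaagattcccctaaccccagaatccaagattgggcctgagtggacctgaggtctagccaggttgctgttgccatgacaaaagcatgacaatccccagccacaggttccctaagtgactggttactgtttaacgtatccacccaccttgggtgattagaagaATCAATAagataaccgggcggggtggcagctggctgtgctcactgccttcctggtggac
Hnf4a P1: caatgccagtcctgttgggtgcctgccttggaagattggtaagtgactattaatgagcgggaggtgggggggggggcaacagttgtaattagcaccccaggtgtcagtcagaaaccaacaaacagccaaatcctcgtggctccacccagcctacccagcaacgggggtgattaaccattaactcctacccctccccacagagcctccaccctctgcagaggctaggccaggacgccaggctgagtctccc
Foxa1: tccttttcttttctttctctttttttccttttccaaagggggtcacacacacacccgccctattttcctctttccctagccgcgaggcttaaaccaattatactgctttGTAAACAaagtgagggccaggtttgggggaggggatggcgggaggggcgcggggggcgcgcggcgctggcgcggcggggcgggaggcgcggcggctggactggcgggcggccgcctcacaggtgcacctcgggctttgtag

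The motifs were searched on both strands of these 250 bases in all 32851 promoters of the table, and no matches of different motifs overlapped in a member promoter. The Hnf4a P2 stretch held the ONECUT core ATCAATA 59 to 53 bases before the start, a motif present in 1.86% of all promoters and in 2 of the 12 member promoters, the other belonging to Foxa2. The P1 stretch held no match to the motifs named here. The Foxa1 stretch held the forkhead core TGTTTAC on the strand opposite to the one printed, where it reads GTAAACA, at 141 to 135 bases before the start, a motif of 3.17% of all promoters and of 1 member promoter. The HNF4 core CAAAGTCCA, found in 0.384% of all promoters, and the C/EBP motif TTGCNNAA, found in 9.56%, matched 0 of the 12. The TATA box letters TATAAA matched 4 member promoters, those of Cebpa, Foxa3, and 1 start each of Prox1 and Foxa2, against 12.4% of all. On the strand of the gene they lay 30 to 25 bases before the start for Cebpa and 36 to 31 for Foxa3. The matches of Prox1, at 34 to 29, and Foxa2, at 208 to 203, were on the opposite strand. A match describes letters only and is not evidence of binding.

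The GC content of the member promoters ranged from 50.8% to 81.6%, against a median of 52.4% over all promoters. The highest value was that of Cebpb, above 99.2% of promoters in the table, and 10 of 12 member promoters were above the median. The Hnf4a P2 stretch, at 51.2%, was among the 2 below it.

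Hnf4a encodes the nuclear receptor at the centre of this network. Its probe, A_55_P1959633 for NM_008261, lies at chr2:163398548-163398607 of mm9 on the plus strand, at position 4262 of the transcript, and the array annotates it to 3 Ensembl transcripts. Exons and UTRs of mm9 were not used here. The processed signal was 8354 with control siRNA and 29875 with G0s2 siRNA. In levels these were 4.32 and 5.36, a difference of 1.04 ± 0.20. The difference less its scanner error was 0.84, so the 2-fold line lay within 1 error of the value. Of the 15419 genes, 664 had a larger positive difference, and Hnf4a lay above 95.7% of all. The call rested on 1 spot per array. Among genes with several probes on both arrays whose brightest probe was at least 2-fold higher, the next brightest passed too in 64 of 128.

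**Figure D1:**
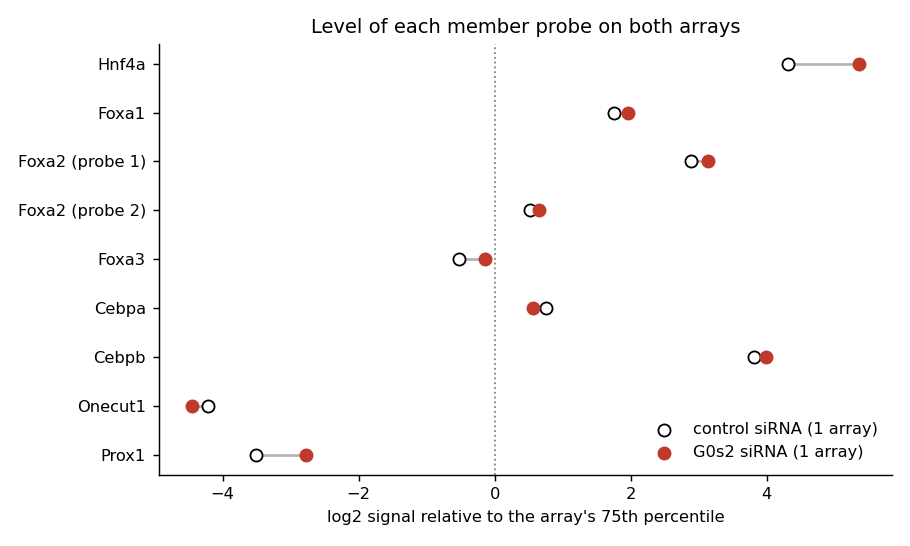
Level of each of the 9 member probes on the control siRNA array (open) and the G0s2 siRNA array (filled), as log2 signal relative to the array's 75th percentile, with 1 array per group. Hnf4a moves from 4.32 to 5.36 and Prox1 from -3.51 to -2.77, and the points of the other probes lie closer together.

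Prox1 encodes a homeodomain repressor that restrains hepatocyte metabolic genes and marks hepatocytes and lymphatic endothelium. Its probe, A_55_P2048751 for NM_008937, lies at chr1:191945785-191945844 of mm9 on the minus strand, at transcript position 3948. The processed signal was 36.8 with control siRNA and 106.7 after the knockdown, where the lowest signals well above background were 14.3 and 18.1. Levels were -3.51 and -2.77, a difference of 0.74 ± 0.24, above 91.2% of all genes. The spot's unadjusted brightness was only 1.76 times its local background on the control array and 3.22 times on the other. With normexp background correction, which adds an offset of 50 before the centring, the Prox1 difference was 0.13. The cause of that change was not tested. The difference of Hnf4a exceeded that of Prox1 by 0.30 with an error of 0.32, so both values overlap within the scanner's error.

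Endothelial markers are given beside Prox1 because lymphatic endothelium also makes it. The list was drawn up for endothelial cells and holds no marker chosen for lymphatic ones, so it does not single those out. Of the 6 endothelial markers, 5 were well above background on both arrays. Cdh5 was the 1 at least 2-fold higher, with a difference of 1.01 ± 0.26, where 4.81% of all genes were. Pecam1 differed by 0.77 and Flt1 by 0.94, while Stab2 differed by -0.18 and Kdr by -0.51, although another Kdr probe gave 1.27. The median over the markers was 0.39, and with normexp it was -0.06 and Cdh5 differed by 0.13. Cdh5 was also under 2-fold with quantile normalization, at 0.95, and with cyclic loess, at 0.89. The median counts Vwf, which was not well above background on the control array, at 0. The part of endothelial RNA in the Prox1 value was not tested.

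**Figure D2:**
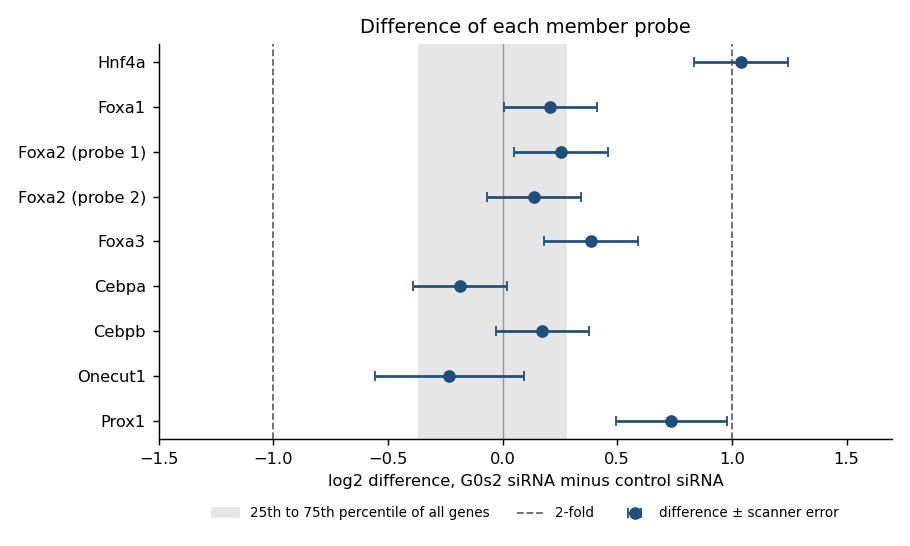
Difference of each member probe (G0s2 siRNA minus control siRNA, log2) with the scanner's error as bars, the 2-fold lines dashed and the 25th to 75th percentile of all genes shaded (-0.37 to 0.28). Hnf4a at 1.04 crosses the 2-fold line within its error, Prox1 at 0.74 lies below it, and 5 of 8 members lie inside the shaded range.

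The forkhead factors differed little and in the same direction. Foxa1, which opens chromatin ahead of other factors, had signals of 1415 and 2843 and levels of 1.76 and 1.97, a difference of 0.21 ± 0.20. Its probe, A_55_P2053933, lies at chr12:58641764-58641823 of mm9 on the minus strand. Foxa2, a regulator of bile acid and lipid genes in adult liver, was the member with 2 probes. The brighter, A_55_P2134236 at chr2:147868669-147868728, had signals of 3082 and 6391 and a difference of 0.25 ± 0.20. The other, A_55_P2067533 at chr2:147868614-147868673, had signals of 598 and 1142 and a difference of 0.14 ± 0.20. These probes lie on the minus strand and share 5 bases, so they read adjacent stretches of the gene, and the array annotates them to 3 and 2 Ensembl transcripts. Their differences were 0.12 apart, against a median gap of 0.27 between the brightest 2 probes over 3377 genes.

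Foxa3, an abundant forkhead paralogue of adult liver, had the largest difference of the 3. Its probe, A_52_P64707 at chr7:19599053-19599112 on the minus strand, gave signals of 291 and 661 and levels of -0.53 and -0.14. The difference was 0.39 ± 0.20, above 80.3% of all genes and within 2 scanner errors of 0. The differences of the 4 Foxa probes spanned 0.14 to 0.39. Foxa1, Foxa2 and Foxa3 had positive differences under all 11 alternatives tried. These reprocess the same spots, and several leave the values unchanged or shift all members alike, so they add no replicate check of the direction. Foxa1 lay 1.02 and the brighter Foxa2 probe 1.24 scanner errors from 0.

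The C/EBP genes lay on opposite sides of 0. Cebpa, which holds mature hepatocytes in a metabolic, non-dividing state, had signals of 707 and 1081 and levels of 0.76 and 0.57, a difference of -0.19 ± 0.20. Its probe, A_52_P168567, lies at chr7:35906517-35906576 on the plus strand. Cebpb, which responds to IL-6, hormones and liver injury, had signals of 5876 and 11527 and levels of 3.81 and 3.99, a difference of 0.17 ± 0.20. Its probe, A_55_P2165869, lies at chr2:167515828-167515887 on the plus strand. Each difference was within its scanner error of 0. Cebpb exceeded Cebpa by 0.36 with an error of 0.29 for that contrast, and with spike-in centring both differences were positive, at 1.69 and 1.33.

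Onecut1, which acts with HNF4A and FOXA2 on hepatocyte and bile duct genes, was the member nearest to background. Its probe, A_55_P1965456 at chr9:74710921-74710980 on the plus strand, had signals of 22.5 and 33.3, with a spot brightness of 1.66 and 1.99 times the local background. Levels were -4.22 and -4.45, a difference of -0.23 ± 0.32, the widest error among the members. A difference of this size was not detectable at this signal. With spike-in centring it was 1.29, and with normexp -0.47. Cholangiocyte markers are given beside Onecut1, since bile duct cells also express it. All 5 measured had a negative difference, from -0.55 for Spp1 to -1.29 for Cldn7, with a median of -0.94 that spike-in centring turned to 0.58, and Epcam was not well above background. Their part in the Onecut1 value was not tested.

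Measured against the scanner error alone, Hnf4a and Prox1 were the 2 of 8 members whose difference exceeded 2 errors, and 36.4% of all genes did so. Hnf4a lay 5.10 errors from 0 and Prox1 3.03. For bright probes with 1 spot, such as that of Hnf4a, the error was close to a fixed share of the signal. Distance in errors there mostly restates the fold. The other 6 members lay between 0.72 and 1.88 errors from 0.

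The probes of Hnf4a and Prox1 also lay farthest along their transcripts among the members, at positions 4262 and 3948, while the others lay between 1193 and 2982. Over all genes measured on both arrays, the median difference was -0.16 for probes at positions 1 to 504 and 0.07 for those from 4522 onward. In the range of 3383 to 4518, which holds both genes, it was 0.02, and 6.39% of genes there were at least 2-fold higher. After a lowess trend with position was removed, an alternative added after the data were seen, Hnf4a differed by 0.95 and Prox1 by 0.65. The call of Hnf4a at 2-fold ended there, since its value lies so near the line.

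**Figure D3:**
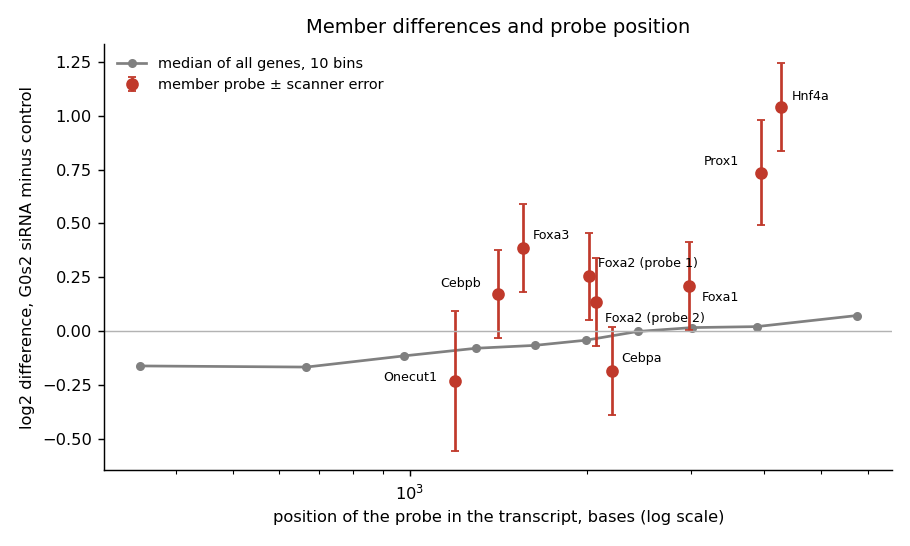
Difference of each member probe with its scanner error against the position of the probe in the transcript (log scale), with the median over all genes in 10 position bins in grey. Hnf4a and Prox1 lie far to the right and well above the grey line, which runs between -0.17 and 0.07.

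The choice of scale moved all members together. The stated RNA input was equal, yet signals of all 8 members were brighter on the G0s2 siRNA array before centring, by 1.48 times for Onecut1 to 3.58 times for Hnf4a. Of 10 spike-in controls, 8 were well above background on both arrays, and their log2 differences ranged from -0.97 to -0.02. Centring on their median moved the median of all genes by 1.49, to 1.46, and placed 8 of 8 members and 82.9% of all genes at least 2-fold higher. Directions given here are therefore relative to the bulk of genes on each array. Hnf4a had the highest difference of the 8 members under each of the 11 alternatives. Several of these, such as spike-in centring and the dim-probe filters, shift all members alike or leave their values unchanged. Those could not have changed the order.

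**Figure D4:**
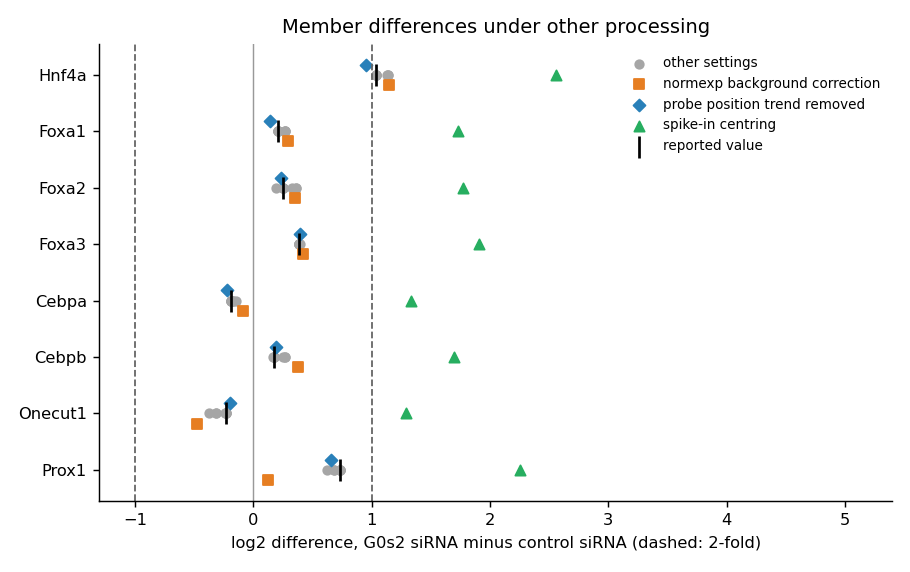
Difference of each member under the reported processing (black bar) and 11 alternatives, with normexp, removal of the probe position trend and spike-in centring marked. Hnf4a stays at 0.95 to 1.15 apart from spike-in centring at 2.56, and Prox1 drops from 0.74 to 0.13 with normexp.

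Other transcription factors of liver differed in both directions. Of 30 listed, 29 were measured, 1 passed the 2-fold rule upward and 2 downward, and the median was 0.07. Over all genes, 4.81% passed upward and 5.45% downward. The higher gene was Nr1i2, which encodes the xenobiotic receptor PXR and is a known target of HNF4A, with levels of 0.34 and 1.58 and a difference of 1.24 ± 0.20. Creb3l3, an ER-bound factor of fasting metabolism, had levels of 4.31 and 2.94 and a difference of -1.37 ± 0.20. Nr0b2 (SHP), a corepressor that binds HNF4A, was not well above background after the knockdown and was at least 2.04-fold lower. With spike-in centring Creb3l3 differed by 0.15 and Nr0b2 gave no fold, and with normexp Nr0b2 differed by -0.84.

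Other nuclear receptors of the list that are named here had differences under 2-fold. Ppara, the fatty acid receptor, differed by 0.94 ± 0.20, although its other probes gave 0.62 and 0.06. Nr1h4, the bile acid receptor FXR, differed by 0.69, and Nr5a2 (LRH-1) by 0.12. Rxra, the partner of many of these receptors, differed by -0.71, but its other probe gave 0.47. Sox9, a bile duct factor, had levels of -0.61 and -1.56 and a difference of -0.94 ± 0.07, an error that is smaller because its probe has repeated spots.

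Paralogues of the members stayed within 2-fold. Onecut2 had levels of 2.91 and 2.55 and a difference of -0.36 ± 0.20. Cebpd differed by -0.16 and Cebpg by 0.19. Hnf4g was not well above background on either array. Ddit3 (CHOP), which pairs with C/EBP proteins under stress, differed by 0.07. The GATA factors Gata4 and Gata6 differed by 0.38 and 0.45, and the early liver factor Hhex by -0.15.

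Known targets of HNF4A, FOXA and C/EBP factors were listed from general knowledge. Of 30 listed, 27 were measured, and 3 passed the 2-fold rule upward and 1 downward, against 4.81% and 5.45% of all genes. A positive difference was seen in 22 of the 27, with a median of 0.35 against -0.03 for all genes. The share of all genes with a positive difference was not computed. The 3 higher genes were Cps1, of the urea cycle, at 2.96, Igfbp1, an insulin-repressed FOXA target, at 1.67, and Tdo2, of tryptophan breakdown, at 1.29. F9, coagulation factor IX, whose promoter binds HNF4A, ONECUT and C/EBP factors, differed by -1.43. Just under the line, Otc, also of the urea cycle, differed by 0.92, with 1.27 from its other probe, and Cyp27a1, of bile acid synthesis, by 0.88. Pklr, of glycolysis, differed by 0.67. Alb, Ttr, Apoa1, Apob, Serpina1a, Tat and Cps1 are also hepatocyte markers, and their part in the list's median was not tested. The 9 measured hepatocyte markers had a median of 0.31, and 8 had a positive difference.

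Apolipoprotein genes, which are direct targets of HNF4A, varied in size and sign. Apoa1 had levels of 5.71 and 6.35, a difference of 0.64 ± 0.07. Apoc3 differed by 0.35 and Apom by 0.08, while Apoa2 differed by -0.27. Apob differed by 0.31, although its other probe gave 1.26. Mttp, which loads lipid onto apolipoprotein B, differed by 0.07. Tat, a C/EBP and FOXA target of tyrosine breakdown, differed by 0.44, Pck1 by 0.03 and G6pc by 0.42. Cyp7a1 and Cyp8b1, of bile acid synthesis, were not well above background on either array.

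**Figure D5:**
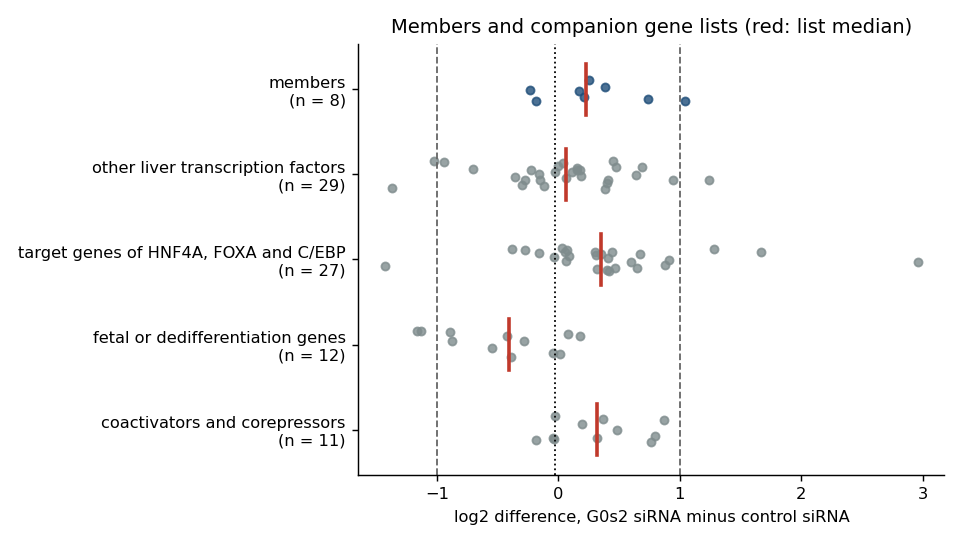
Difference of every measured gene in the member set and 4 companion lists, with list medians in red, the median of all genes dotted (-0.03) and the 2-fold lines dashed. Medians are 0.23 for the 8 members, 0.07 for other liver factors, 0.35 for target genes, -0.40 for fetal or dedifferentiation genes and 0.32 for coactivators and corepressors.

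Genes of fetal liver or of hepatocyte dedifferentiation mostly stayed within 2-fold. Of 16 listed, 12 were measured, 0 passed the 2-fold rule upward, 2 downward and 10 neither. Over all genes, 4.81% passed upward and 5.45% downward. Of the 12, 9 had a negative difference, and the list median was -0.40. Spike-in centring turned that median to 1.11. Cd44, a receptor of regenerating epithelium, differed by -1.16, with -0.90 from another probe, and the duct keratin Krt19 differed by -1.13. With normexp these were -0.95 and -0.90, under 2-fold. The mean over the 4 Cd44 probes was -0.52, which counts at 0 those dim probes whose bound gave no fold. Krt7 differed by -0.87, Spp1 by -0.55 and Snai1, an epithelial to mesenchymal transition factor, by -0.42. Afp, alpha-fetoprotein, had levels of 4.99 and 4.11 and a difference of -0.89 ± 0.06. Krt8 and Krt18, the keratins of hepatocytes, differed by 0.08 and 0.01. Igf2, Gpc3, Dlk1 and Epcam were not well above background on either array. Krt19, Krt7 and Spp1 are also cholangiocyte markers, and their part in the list's median was not tested.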

How the data were processed

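The deposited scanner tables hold spot intensity values that the authors read with Agilent Feature Extraction 10.7.1.1, per the file headers and the submitters' processing notes. The processed signal is background-corrected. The intensity values of the deposited series table served as an alternative. No source used here gives its normalization. Its member differences lay close to those with quantile normalization, at 1.14 and 1.13 for Hnf4a and 0.68 in both for Prox1. These 2 alternatives are therefore nearly the same setting. Log2 processed signals were centred on each array's 75th percentile after removal of control and outlier spots, which left 39424 probes. Probes were named by accession (26408), symbol (3854) or synonym (734) through a RefSeq table of GRCm38.p6. Each gene was represented by the brightest of its probes that 1 or both arrays had well above background, and a dim array gave a bound. Of 15419 genes, 439 gave a bound of no fold and entered at 0. Per the file headers, 1 slide and 1 scan start held both arrays, so slide position and group cannot be told apart. No test was possible with 1 array per group.

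The members and lists were chosen with earlier results of these data known. Named genes were all members, G0s2, and from each list those past 2-fold, up to 4 more with the largest differences, and partners or repressors of members. Other target, marker and keratin genes were named for their known role after their values were seen. The functions were tested on simulated data with planted differences well past 2-fold. None was planted near the 2-fold line, where the value of Hnf4a lies. Some genes of the lists enter the counts and are not reported here by name. Calculations used Python 3.11.15, pandas 2.3.3, statsmodels 0.14.6, R 4.3.3 and limma 3.58.1.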

Additional observations from a re-analysis of the deposited data

How the results depend on the processing

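Counts and medians were recomputed under normexp (offset 50), 4 other scalings, the submitters' series table, 2 other dim-probe filters, averaging over probes, outlier spots kept, rules of 1.5-fold and 3-fold, and, added after the data were seen, removal of the probe position trend. Members at least 2-fold higher numbered 8 with spike-in centring, 2 at 1.5-fold, 0 at 3-fold and 0 without the position trend, and 1 under the others. All genes higher and lower numbered 378 and 518 with normexp, 12785 and 42 with spike-in centring, 1523 and 1455 without a filter, 1918 and 2245 at 1.5-fold, and 176 and 236 at 3-fold. Spike-in centring moved the members' median to 1.75 and that of all genes to 1.46, and 99.7% of genes past the rule were then higher, against 46.9%. The cause of the normexp counts was not tested. Hnf4a ranged from 0.95 to 1.15 without spike-in centring. Cebpa and Onecut1 were negative under 10 of 11 alternatives and positive with spike-in centring. Several alternatives left member values unchanged or shifted all members alike, so they could not change a rank among members. No paired analysis was possible because each group has 1 array. Low signal limits Onecut1 and Prox1.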

Other observations

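Cofactors through which these transcription factors act differed less than 2-fold. Of 12 coactivators and corepressors listed, 11 were measured, 0 were at least 2-fold higher or lower, and the median difference was 0.32. Over all genes, 4.81% were at least 2-fold higher and 5.45% lower. The acetyltransferase gene Ep300 differed by 0.80 ± 0.22, while its relative Crebbp differed by -0.19. Ppargc1a, the coactivator of HNF4A in fasting, differed by 0.76. The mean over its 2 probes was 0.38, which counts the other, dim probe at 0 because its bound gave no fold. Ncor1 differed by 0.48 and Hdac3, its deacetylase partner, by -0.03. Trib1, whose product promotes the breakdown of C/EBP alpha protein, had levels of 1.26 and 1.58, a difference of 0.32 ± 0.20. Ppargc1b was not well above background on either array.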
